A study of Mus musculus with 19 samples.

Results

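The comparison described here asks what oat beta-glucan did to the liver of mice on the control diet. It used 10 of the 19 liver libraries of the series, chosen by their treatment label: 5 labelled CTRL+beta-Glucan and 5 labelled CTRL. All came from male mice whose genotype the labels write as C57Bl/J6 and the series as C57BL/6J, with no transgene or deleted gene named. Both groups were taken at 24 weeks, and the labels do not say whether this is an age or a time on the diet. They give no dose of beta-glucan and no composition of the control diet. The other 9 libraries carry the label WSD (5) or WSD+beta-Glucan (4), a second diet that the labels do not spell out. The series title places the study in fatty liver disease and the gut microbiota. The labels do not tie libraries to separate mice, so p-values measure the spread between these libraries, which may be technical.

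Beta-glucan of oat is a soluble, viscous fibre of cereal cell walls that mammalian enzymes do not digest. Gut bacteria ferment it to short-chain fatty acids, which reach the liver by the portal vein, and it is known for binding bile acids in the gut and for lowering blood cholesterol. Loss of bile acids is commonly met in the liver by more synthesis from cholesterol through Cyp7a1 and by more sterol synthesis and uptake under the transcription factor SREBP2. Beta-glucans of fungi are better known as ligands of dectin-1, a receptor of macrophages and dendritic cells.

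Library sizes ran from 17541885 to 22832450 estimated reads with beta-glucan and from 18351507 to 23432509 without it, and the difference had an exact permutation p = 0.960 (two-sided, n = 5 and 5). At least 10 reads were counted for 12255.6 ± 321 genes (SD, n = 5) with beta-glucan and for 12250 ± 96.1 genes in CTRL. The share of mitochondrial-encoded transcripts was 2.94% and 2.90%. The groups, on a first principal component that held 23.1% of the variance of log2 CPM (counts scaled to a common library size), differed with an exact permutation p = 0.381. The smallest p that 5 against 5 libraries allow is 0.00794. CTRL+beta-Glucan replicates 1 and 2 lay at 46.2 and 25.3 on this component, above all other libraries. The titles of these libraries begin with 39 and 40, and that of WSD+beta-Glucan replicate 1 begins with 37, while all other titles begin with 52 or more. The S numbers in the titles are 3, 1 and 2 for these libraries, but S number 2 also stands in the title of WSD replicate 1, which begins with 52 and was kept. No CTRL library has a title number below 52, so in those 2 libraries beta-glucan and whatever the titles mark cannot be told apart. Values without these 3, called libraries 37, 39 and 40, are given below for a selection of genes and lists. Where they are not given, they may differ too.

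On the control diet 1 gene passed the test with beta-glucan. Epha2 (ENSMUSG00000006445), a receptor tyrosine kinase that binds ephrin-A ligands at cell contacts, rose. It stood at 51.9, 41.7, 74.9, 58.4 and 62.4 CPM in CTRL+beta-Glucan replicates 1 to 5 and at 30.1, 28.5, 40.3, 25.1 and 32.3 CPM in CTRL replicates 1 to 5. Every library with beta-glucan was above every library without it, with the closest pair, CTRL+beta-Glucan replicate 2 and CTRL replicate 3, near 40 CPM. The means were 57.9 ± 12.3 and 31.3 ± 5.70 CPM (SD, n = 5 each), a log2 fold change of 0.89 ± 0.13 (SE) with an edgeR adjusted p = 0.0284 (Benjamini-Hochberg). Of the reads of Epha2, 99.6% were assigned to 1 transcript. Of 13594 genes tested, this was 1 higher (0.00736%) and 0 lower (0%). At an unadjusted p under 0.05 there were 775 genes (5.7%), 389 higher (2.86%) and 386 lower (2.84%), and by DESeq2 there were 5 higher and 0 lower after adjustment.

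The call of Epha2 was close to the threshold, while its size was steady. Its log2 fold change lay between 0.78 and 0.995 with any 1 of the 19 libraries left out, but the adjusted p lay between 0.0026 and 0.148 and was past 0.05 in 12 of these 19 fits. Those were the fits without CTRL+beta-Glucan replicate 3 (0.0780), 4 (0.105) or 5 (0.0639), CTRL replicate 1 (0.0752), 2 (0.0864), 4 (0.148) or 5 (0.109), WSD replicate 2 (0.0502), 3 (0.0523), 4 (0.0541) or 5 (0.0505), or WSD+beta-Glucan replicate 2 (0.0516). With edgeR on the 10 libraries alone the adjusted p was 0.350. With libraries 37, 39 and 40 left out, the log2 fold change was 1.06 ± 0.12 and the adjusted p was 9.38e-04.

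**Figure D1:**
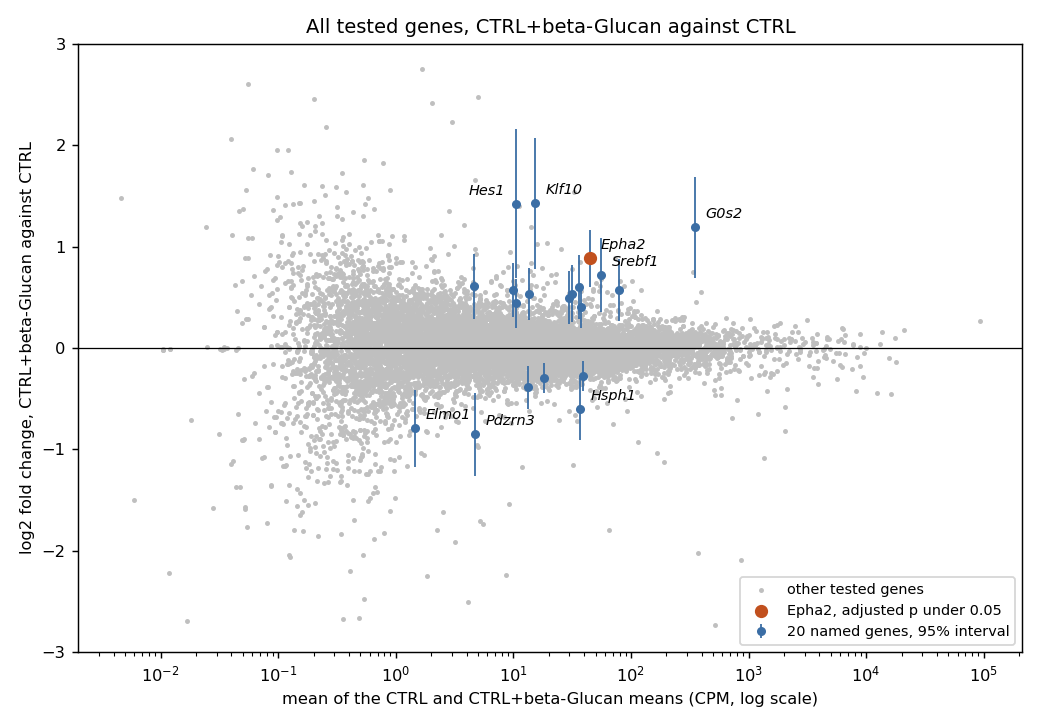
Log2 fold change of CTRL+beta-Glucan against CTRL (vertical axis) against mean CPM (horizontal log axis) for the tested genes within 3 log2 units of 0, which leaves out 14 genes. Blue points are the 20 genes named by p with their 95% intervals, and the orange point is Epha2 at 0.89; the cloud of other genes narrows around 0 as the mean rises.

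The bounds on the other genes were narrower where expression was high. Among 7139 genes with a mean of at least 10 CPM, the 95% interval of the log2 fold change lay within a 2-fold change in both directions for 6984 (97.8%) and within 1.5-fold for 6512 (91.2%). Over all 13594 genes these counts were 11405 (83.9%) and 8803 (64.8%). For genes under 1 CPM, 596 of 2159 (27.6%) were bounded within 2-fold. The median absolute log2 fold change was 0.12, against a median SE of 0.14. The median log2 fold change over all genes was 0.00, and 6907 genes (50.8%) had a positive one. Libraries of both groups did not overlap for 38 genes that were higher (0.28%) and 28 that were lower (0.206%).

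The 19 genes with the next smallest p are given as values, since none passed the test, with edgeR adjusted p between 0.39 and 0.63. Of these 19 and Epha2, 14 were higher and 6 lower with beta-glucan. In 6 of the 14 higher and 3 of the 6 lower genes the libraries of both groups did not overlap, beside 0.28% and 0.206% of all genes. The 20 were picked by p from these same libraries, so a lack of overlap follows largely from the choice and is no further evidence. In the fit without libraries 37, 39 and 40, all 20 kept their direction, and each log2 fold change was between 0.79 and 1.24 times the value with all libraries.

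Among genes of fat metabolism, G0s2, which encodes an inhibitor of the lipase that breaks down stored triglyceride, came next after Epha2. Its levels were 396, 259, 742, 576 and 448 CPM with beta-glucan and 237, 143, 282, 207 and 190 CPM in CTRL. Only CTRL+beta-Glucan replicate 2 fell inside the range of CTRL, below its replicate 3. The log2 fold change was 1.19 ± 0.24 with an adjusted p = 0.390. It passed the test with DESeq2 (1.20, adjusted p = 0.00143), without libraries 37, 39 and 40 (1.48 ± 0.22, edgeR adjusted p = 0.0154), with a term for them (1.39, 0.0377) and without CTRL+beta-Glucan replicate 2 (1.35, 0.0309).

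Srebf1, the gene of the transcription factor SREBP1, which drives fatty acid synthesis after feeding, stood at 77.5, 76.6, 55.6, 64.6 and 71.1 CPM with beta-glucan and at 42.2, 46.1, 37.4, 48.3 and 36.0 CPM in CTRL. The groups did not overlap. The means of 69.1 ± 9.15 and 42.0 ± 5.35 CPM gave a log2 fold change of 0.72 ± 0.17 (adjusted p = 0.554). Angptl8, a feeding-induced regulator of lipoprotein lipase, had 70.3, 75.0, 41.8, 43.8 and 11.5 CPM with beta-glucan and 15.6, 33.4, 13.5, 12.7 and 8.29 CPM in CTRL, a log2 fold change of 1.54 ± 0.41 (adjusted p = 0.719). Its highest values were those of CTRL+beta-Glucan replicates 1 and 2, and without libraries 37, 39 and 40 its log2 fold change was 0.96 ± 0.44. Aqp8, a water and hydrogen peroxide channel of the hepatocyte, had 44.6 to 50.5 CPM in 4 libraries with beta-glucan and 27.4 CPM in replicate 3, against 22 to 35.1 CPM in CTRL.

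Among genes of transcription and signalling, Klf10, a zinc finger factor induced by TGF-beta and by glucose, had 22.9, 30.8, 24.6, 20.4 and 13 CPM with beta-glucan and 11.5, 15.3, 4.90, 3.13 and 6.64 CPM in CTRL, a log2 fold change of 1.43 ± 0.31. Hes1, a repressor downstream of Notch, ranged from 5.14 to 25.9 CPM against 3.90 to 7.82 CPM in CTRL (1.43 ± 0.35). DESeq2 called Klf10 (adjusted p = 0.00785) and Hes1 (0.0406) higher, and edgeR did not (0.550 and 0.562). Tob1, an antiproliferative adaptor, had 75.1 to 112 CPM against 53.3 to 81.8 CPM, and Amotl2, a scaffold of the Hippo pathway, 26.1 to 49.2 against 21.3 to 29.4 CPM. For the Wnt receptor Fzd8 the groups did not overlap, with 10.6 to 15.3 CPM against 8.32 to 10.2 CPM, and the same held for Tgfbr3l, a relative of the TGF-beta coreceptor, with 4.78 to 6.55 against 2.97 to 4.39 CPM. Odf3b, named for outer dense fibre proteins of sperm tails, had 13.5 to 18.3 CPM against 8.81 to 12.8 CPM, also without overlap.

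The fifth gene called by DESeq2, Gm6472, had 133, 25, 0, 0 and 47 reads with beta-glucan and 0 in every CTRL library, so its value rests on 3 libraries.

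The 6 lower genes among the 20 include 3 without overlap. Elmo1, which helps to activate Rac during engulfment and migration, had 0.791 to 1.37 CPM with beta-glucan and 1.54 to 2.14 CPM in CTRL, without overlap, a log2 fold change of -0.79 ± 0.18. Pdzrn3, an E3 ubiquitin ligase, had 2.42 to 4.93 against 3.90 to 7.17 CPM (-0.85 ± 0.20). Xpo5, the exporter of precursor microRNA from the nucleus, had 15.3 to 17.5 CPM against 17.7 to 22 CPM, and Eaf1, a cofactor of transcription elongation, 32.3 to 38.3 against 40.0 to 46.1 CPM. For neither did the groups overlap, and their log2 fold changes were -0.30 ± 0.07 and -0.28 ± 0.07. Dhx33, an RNA helicase, had 9.81 to 14 against 13 to 16.6 CPM.

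**Figure D2:**
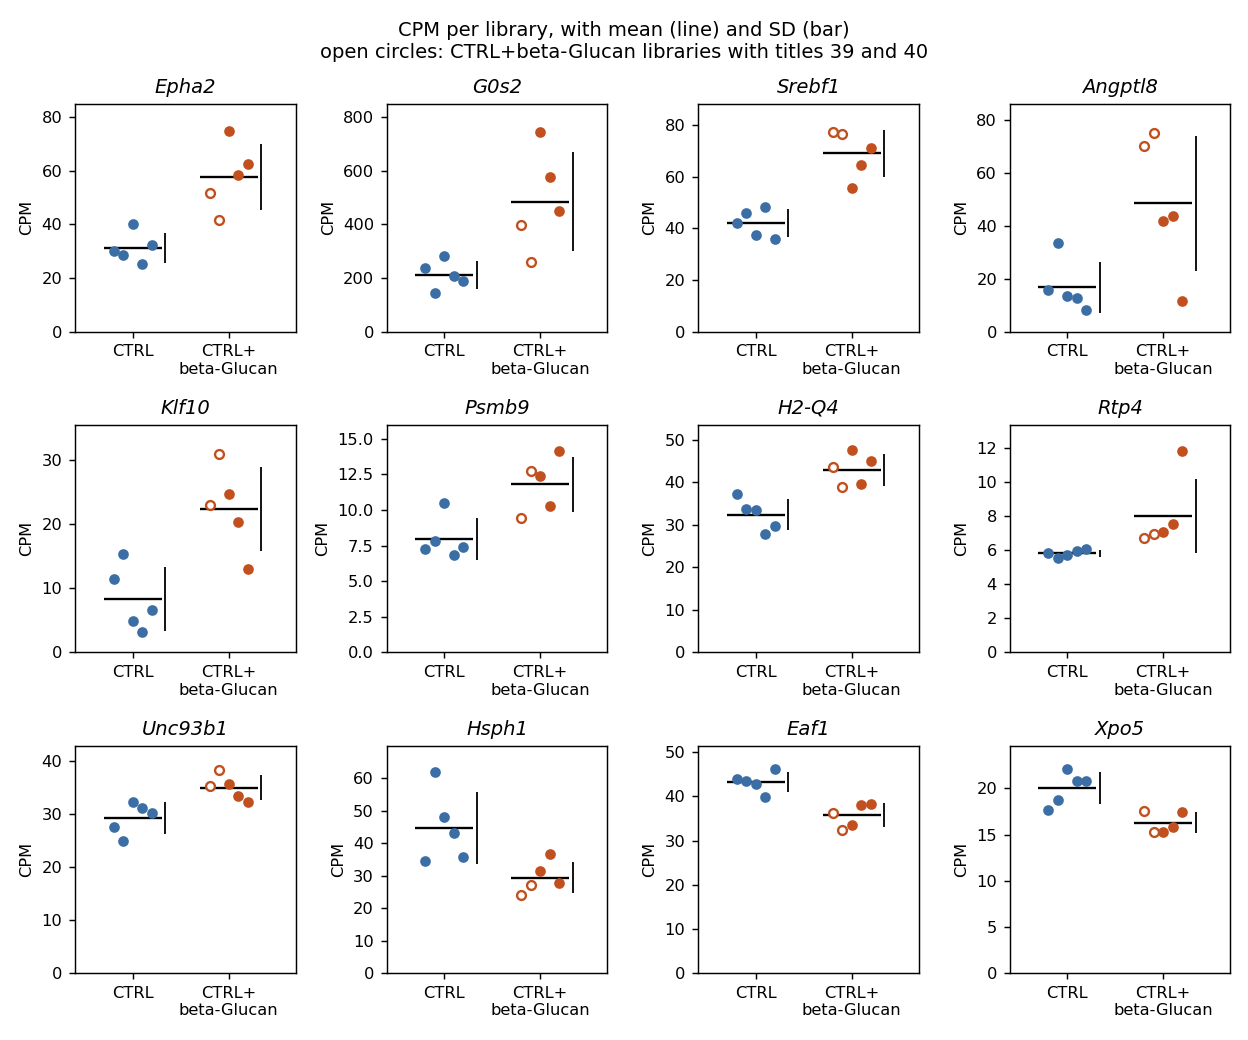
CPM of 12 genes in each library (points), with the group mean (line) and SD (bar), on axes that start at 0; open circles mark CTRL+beta-Glucan replicates 1 and 2, whose titles begin with 39 and 40. Epha2 at 41.7 to 74.9 CPM with beta-glucan lies above 25.1 to 40.3 CPM in CTRL, while Angptl8 and G0s2 overlap in 1 library or more.

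Antigen presentation supplied 3 of the 19 genes. Psmb9, a catalytic subunit of the immunoproteasome, which cuts proteins into peptides for MHC class I, had 9.45, 12.7, 12.4, 10.2 and 14.1 CPM with beta-glucan and 7.25, 7.80, 10.5, 6.80 and 7.37 CPM in CTRL (log2 fold change 0.57 ± 0.13). Only CTRL replicate 3 reached into the range of the other group. H2-Q4, a non-classical class I heavy chain, had 38.9 to 47.7 CPM against 27.9 to 37.3 CPM without overlap (0.41 ± 0.10). H2-Q6, a close relative, had 29.0 to 41.4 CPM against 22.1 to 29.3 CPM (0.50 ± 0.12). These chains are near-identical copies: 38.4% of the stretches of 31 bases in H2-Q4 and 49.8% of those in H2-Q6 occur in another gene, so the split of reads between them is uncertain. The same holds for Hspa1b (68.0%), Hbb-bs (54.4%), Tgfbr3l (49.1%), Saa1 (46.8%) and Acaca (33.0%).

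All 17 tested genes of MHC class I presentation and the immunoproteasome had a positive log2 fold change, with a median of 0.25, beside 0.00 over all genes, and 0 passed the test. At an unadjusted p under 0.05 there were 7 higher and 0 lower, beside 2.86% and 2.84% of all genes. The list's score, the mean log2 CPM of its members, ran from 6.12 to 6.42 with beta-glucan and from 5.96 to 6.24 in CTRL. The highest scores were those of CTRL+beta-Glucan replicates 1 and 2. Without libraries 37, 39 and 40, 11 of 17 were positive and the median was 0.11, and with a term for these libraries it was 0.14. In the fit without them 5 were higher and 0 lower at an unadjusted p under 0.05, beside 2.98% and 3.52% of all genes.

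Interferon-stimulated genes, the antiviral programme that cells switch on in response to interferon, showed the same sign more widely. All 37 tested had a positive log2 fold change with a median of 0.35. At an unadjusted p under 0.05, 7 were higher and 0 lower, beside 2.86% and 2.84% of all genes. None passed the test, with a smallest adjusted p of 0.788. Members share their regulators, so they are not independent of each other. The score ran from 2.64 to 3.19 with beta-glucan and from 2.35 to 2.70 in CTRL, with the highest score in CTRL+beta-Glucan replicate 5. CTRL+beta-Glucan replicates 1 to 3, at 2.67, 2.64 and 2.65, lay below CTRL replicate 3 at 2.70. With libraries 37, 39 and 40 left out, 36 of 37 were positive with a median of 0.37, and 17 were higher at an unadjusted p under 0.05, beside 2.98% of all genes. 0 passed the test in that fit, in which CTRL+beta-Glucan replicates 3 to 5 remained. Over the 29 other settings the median of the list ran from 0.17 to 0.42.

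The members with the smallest p were Ifit3, Rtp4 and Oas1a. Of the stretches of 31 bases in Ifit3 61.8% and in Oas1a 68.8% occur in another gene, so their reads are uncertain in the same way as those of H2-Q4. Ifit3, which helps to hold back viral RNA, had 7.29, 6.64, 6.73, 9.37 and 13.7 CPM with beta-glucan and 7.25, 4.57, 6.06, 3.90 and 5.10 CPM in CTRL (log2 fold change 0.71 ± 0.21). Its value in CTRL+beta-Glucan replicate 5 stood above the rest. Rtp4, an interferon-induced chaperone, had 6.71, 6.95, 7.09, 7.56 and 11.9 CPM against 5.85, 5.55, 5.71, 5.97 and 6.08 CPM (0.47 ± 0.15) and was the 1 member of the list without overlap. Oas1a, a sensor of double-stranded RNA, had 2.24, 2.11, 1.68, 1.72 and 1.73 CPM against 1.57, 1.34, 1.75, 0.769 and 1.24 CPM (0.49 ± 0.16).

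Promoters are shown for Ifit3 and Oas1a, to let the shared element of this list be seen, and for Psmb9, the class I gene with the smallest p. Each is the 250 bases before the start in RefSeq (GRCm38.p6), written 5′ to 3′ on the gene's strand. Capitals mark matches to the interferon-stimulated response element in the form GAAA, any 2 bases, GAAA on either strand (read as TTTC on the opposite one); overlapping matches are joined.
Ifit3, chr19:34583279-34583528, plus strand: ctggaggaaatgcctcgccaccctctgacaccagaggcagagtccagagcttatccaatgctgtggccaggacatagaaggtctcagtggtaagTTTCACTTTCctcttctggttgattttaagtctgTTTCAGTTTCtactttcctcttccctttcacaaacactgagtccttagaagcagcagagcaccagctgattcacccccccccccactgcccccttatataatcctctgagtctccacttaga
Oas1a, chr5:120907526-120907775, minus strand: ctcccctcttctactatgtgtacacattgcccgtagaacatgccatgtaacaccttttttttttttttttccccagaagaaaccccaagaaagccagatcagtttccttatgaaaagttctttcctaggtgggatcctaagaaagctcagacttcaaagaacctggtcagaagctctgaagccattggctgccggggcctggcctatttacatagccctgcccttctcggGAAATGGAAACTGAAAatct
Psmb9, chr17:34187331-34187580, minus strand: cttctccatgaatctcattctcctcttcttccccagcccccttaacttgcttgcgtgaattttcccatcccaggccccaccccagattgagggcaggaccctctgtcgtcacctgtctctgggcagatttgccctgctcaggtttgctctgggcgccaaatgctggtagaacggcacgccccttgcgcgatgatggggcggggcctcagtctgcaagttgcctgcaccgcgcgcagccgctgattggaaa

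Ifit3 held 2 matches and Oas1a held 2 that overlap, and Psmb9 held 0 in this window. Of the 37 interferon-stimulated genes 26 had an entry in the RefSeq table, and 16 of these 26 (61.5%) held a match on either strand. Of the 17 class I genes 15 had an entry and 3 held one (20%), namely B2m, H2-T22 and H2-T23. Over all 27025 genes of the table the share was 3.46% (936 genes). A match describes letters and not a bound site.

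MHC class II presentation, a property of macrophages, dendritic cells and B cells, had 11 of 11 members positive with a median of 0.39 and 0 members at an unadjusted p under 0.05. H2-Aa, a class II alpha chain, had 23.7, 27.8, 16.2, 22.5 and 11.2 CPM with beta-glucan and 25.3, 15.3, 15.2, 8.81 and 12.4 CPM in CTRL, and the groups overlapped over most of their range. In the fit without libraries 37, 39 and 40, 7 of 11 were positive and the median was 0.11.

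**Figure D3:**
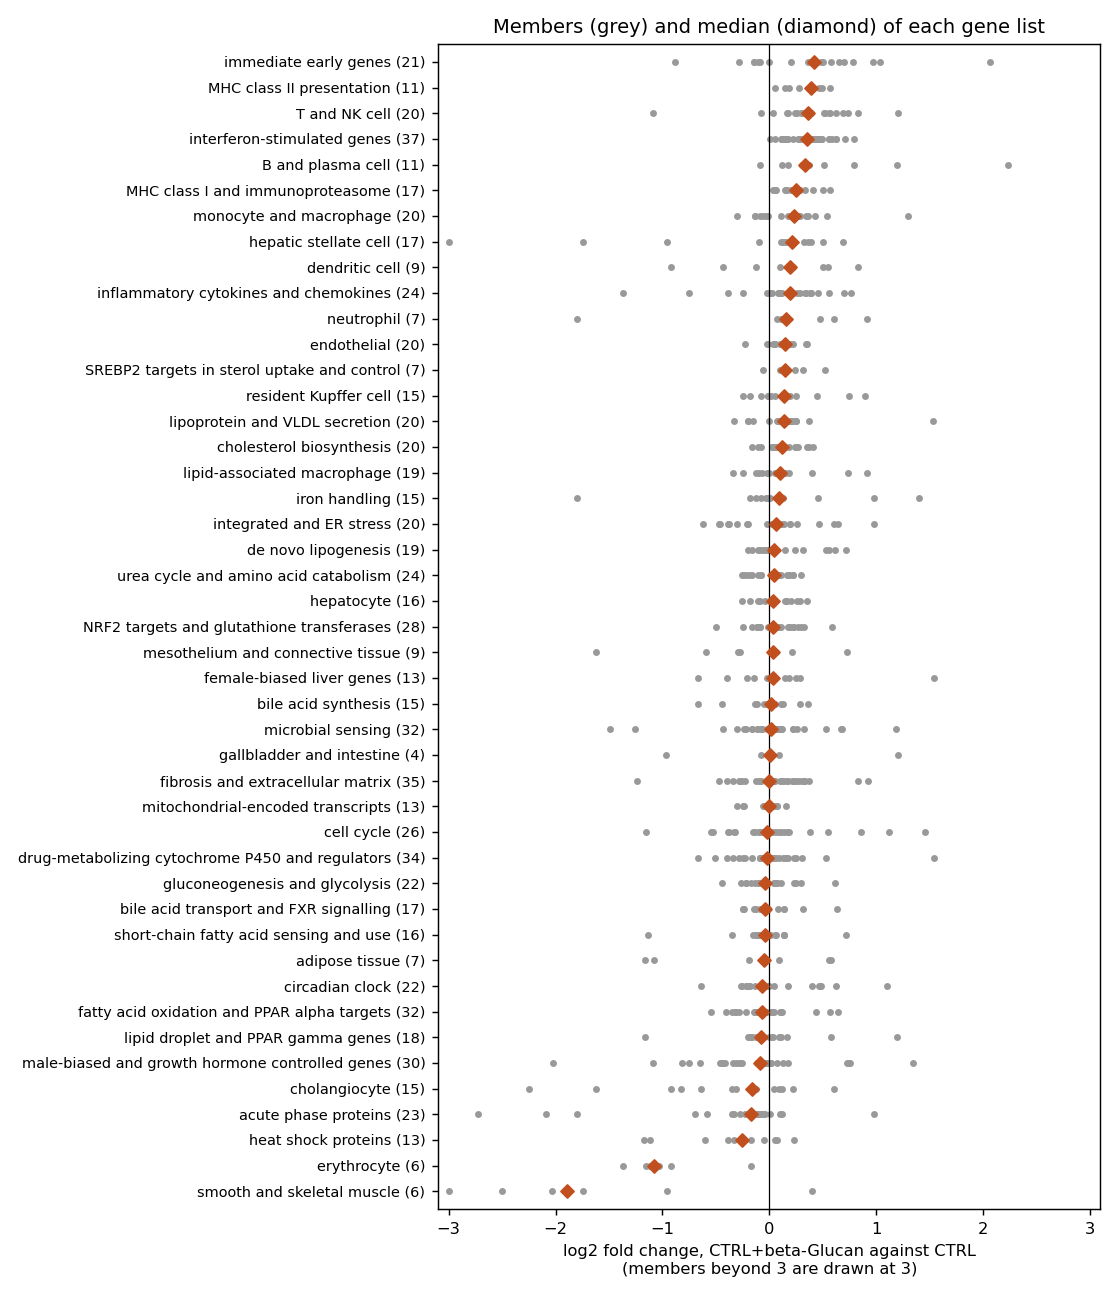
Log2 fold change of CTRL+beta-Glucan against CTRL for each tested member (grey points) and the median (orange diamond) of each gene list, ordered by the median, with the number of tested members in brackets and members beyond 3 drawn at 3. Medians run from -1.89 for smooth and skeletal muscle to 0.42 for immediate early genes, and most lie near 0.

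Bile acid synthesis, the route most often tied to dietary fibre, had 8 of 15 genes positive and a median of 0.02. With all libraries 0 members passed the test or an unadjusted p under 0.05. Without libraries 37, 39 and 40 there were 0 higher and 2 lower at that p, beside 2.98% and 3.52% of all genes. Cyp7a1, the rate-limiting enzyme, had 4.47, 18.7, 17.8, 43.7 and 43.4 CPM with beta-glucan and 7.54, 8.23, 97.0, 33.8 and 58.0 CPM in CTRL. Both groups spread widely, and the 95% interval of its log2 fold change of -0.66 reached from -2.27 to 0.94. A fall of several-fold lay within this interval, while a rise of 2-fold lay just outside it. The log2 fold change was -0.22 ± 0.86 without libraries 37, 39 and 40 and -0.29 ± 0.79 with a term for them. The bound on a rise thus holds only for the fit with all libraries. Cyp27a1, which starts the alternative route, was bounded far more closely, at 505 to 659 CPM against 503 to 543 CPM, with an interval from -0.09 to 0.34. Cyp8b1, which sets the share of cholic acid, had a log2 fold change of -0.02 and an interval from -0.70 to 0.65. Nr0b2, the bile acid-induced repressor SHP, had 42.0 to 102 CPM against 25.8 to 74.5 CPM (0.64 ± 0.31). Slc10a1, the main bile acid importer of hepatocytes, had 445 to 557 CPM against 398 to 534 CPM (0.09 ± 0.13).

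Cholesterol biosynthesis had 17 of 20 genes positive and a median of 0.12, with 0 members at an unadjusted p under 0.05. Levels were highest in CTRL+beta-Glucan replicates 1 and 2. Sqle, squalene epoxidase, had 18.5, 24.3, 6.07, 11 and 8.21 CPM with beta-glucan and 5.67 to 14.2 CPM in CTRL. Without libraries 37, 39 and 40, 5 of 20 were positive, the median was -0.10, and Sqle was at -0.33 ± 0.38.

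De novo lipogenesis, the synthesis of fatty acids from sugar, had 11 of 19 genes positive and a median of 0.05. At an unadjusted p under 0.05 there were 3 higher and 0 lower, beside 2.86% and 2.84% of all genes. These 3 were Srebf1, Mid1ip1, which activates acetyl-CoA carboxylase, and the related lipogenic regulator Thrsp. Mid1ip1 had 19.99, 25.9, 13.1, 14 and 13.5 CPM with beta-glucan and 9.39, 16.1, 9.74, 11.5 and 9.53 CPM in CTRL (0.62 ± 0.19). Thrsp had 15.5, 17.1, 9.49, 10.8 and 10.1 CPM and 7.11 to 11.6 CPM (0.54 ± 0.19). Both were highest in CTRL+beta-Glucan replicates 1 and 2, and their log2 fold changes without libraries 37, 39 and 40 were 0.27 ± 0.17 and 0.23 ± 0.16. Srebf1 was at 0.60 ± 0.17 in that fit. The list there had 10 of 19 positive and a median of 0.05, with 3 higher and 0 lower at an unadjusted p under 0.05, beside 2.98% and 3.52% of all genes. Among the enzymes, fatty acid synthase, Fasn, was at 0.31 ± 0.18 (-0.08 without libraries 37, 39 and 40), the carboxylase Acaca at -0.02 ± 0.10 and the desaturase Scd1 at -0.04 ± 0.21.

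Fatty acid oxidation and the targets of PPAR alpha, the receptor that drives it in fasting, had 9 of 32 genes positive and a median of -0.07. Without libraries 37, 39 and 40, 22 of 32 were positive and the median was 0.08. In that fit 4 were higher and 0 lower at an unadjusted p under 0.05, beside 2.98% and 3.52% of all genes. Ppara had 34.7 to 87.2 CPM against 43.0 to 98.0 CPM (-0.32 ± 0.26), and Cpt1a, which admits fatty acids to mitochondria, 477 to 912 against 576 to 907 CPM (-0.14 ± 0.18). Cidec, a coat protein of large lipid droplets, spread from 5.77 to 106 CPM with beta-glucan and from 21.3 to 81.9 CPM in CTRL. In sugar metabolism, Pck1, an enzyme of gluconeogenesis, had 4268 to 6881 against 4863 to 7255 CPM (-0.05 ± 0.25). Genes that sense or use short-chain fatty acids had 8 of 16 positive and a median of -0.04.

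Of the 28 genes of bile acid, sterol, lipid, glucose and immune biology chosen as a panel, 14 were positive and 0 passed the test. At an unadjusted p under 0.05 there was 1 (Srebf1), beside 5.7% of all genes in either direction. The 95% interval lay within 2-fold in both directions for 18 and within 1.5-fold for 11. It reached past 2-fold for the other 10.

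Sensing of microbial products had 18 of 32 genes positive and a median of 0.01. Without libraries 37, 39 and 40, 14 of 32 were positive and the median was -0.06. In that fit 1 was higher and 3 were lower at an unadjusted p under 0.05, beside 2.98% and 3.52% of all genes. Clec7a, the gene of dectin-1, had 2.16, 1.06, 1.32, 1.16 and 0.495 CPM with beta-glucan and 1.63, 1.28, 0.758, 0.296 and 0.824 CPM in CTRL (0.32 ± 0.35). The lipopolysaccharide coreceptor Cd14 was at -0.07 ± 0.34. Unc93b1, which carries nucleic acid-sensing Toll-like receptors to endosomes, had 35.2, 38.4, 35.7, 33.4 and 32.3 CPM against 27.6, 25.0, 32.3, 31.2 and 30.2 CPM (0.26 ± 0.08, adjusted p = 0.805). The groups did not overlap, although CTRL+beta-Glucan replicate 5 and CTRL replicate 3 were equal after rounding. Inflammatory cytokines and chemokines had 19 of 24 positive, a median of 0.20 and 4 higher at an unadjusted p under 0.05, beside 2.86% higher of all genes. With libraries 37, 39 and 40 left out, 16 of 24 were positive and the median was 0.12. There 2 were higher and 1 lower at that p, beside 2.98% and 3.52% of all genes. Among them the interferon-induced chemokines Cxcl9 and Cxcl10 had 1.68 to 3.82 against 1.16 to 2.70 CPM (0.76 ± 0.26) and 0.993 to 2.83 against 0.773 to 1.69 CPM (0.70 ± 0.25).

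Acute phase proteins, which hepatocytes secrete in inflammation, separated the libraries with beta-glucan from each other. With all libraries 4 of 23 were positive and the median was -0.17. At an unadjusted p under 0.05, 1 was lower, Itih4, and 0 were higher, beside 2.84% and 2.86% of all genes. The list's score was 8.90 and 8.24 in CTRL+beta-Glucan replicates 1 and 2, 6.73, 7.04 and 7.16 in replicates 3 to 5, and 7.40, 8.43, 8.98, 8.18 and 8.15 in CTRL replicates 1 to 5. Replicates 3 to 5 thus lay below every CTRL library, and replicates 1 and 2 among them.

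With libraries 37, 39 and 40 left out, 22 of 23 acute phase genes were negative with a median of -0.64, and 18 were lower at an unadjusted p under 0.05, beside 3.52% of all genes. This leaves out CTRL+beta-Glucan replicates 1 and 2, the libraries with beta-glucan that scored highest in this list, so a lower value follows in part from their removal. In that fit, with 3 libraries against 5, edgeR called 2 genes higher (0.0145%), Epha2 and G0s2, and 3 lower (0.0218%). Orm1, an orosomucoid, stood at 413, 384 and 427 CPM in CTRL+beta-Glucan replicates 3 to 5, at 1599 and 1018 CPM in replicates 1 and 2, and at 637 to 1213 CPM in CTRL (-1.14 ± 0.17, adjusted p = 0.0154). Orm3, a paralog, had 0.480, 0.649 and 0.692 CPM in replicates 3 to 5, 9.24 and 5.52 CPM in replicates 1 and 2, and 2.19 to 6.58 CPM in CTRL (-2.68 ± 0.42, adjusted p = 0.0311). Acnat2, an acyltransferase of peroxisomes, had 27.8 to 31.3 CPM in replicates 3 to 5, 63.1 and 62.9 CPM in replicates 1 and 2, and 47.6 to 75.2 CPM in CTRL (-0.97 ± 0.13, adjusted p = 0.00548). These 3 genes were chosen after their values were seen, by the calls of this fit, and with all libraries Orm1 was at -0.23 ± 0.33 and Orm3 at -0.35 ± 0.68. With all libraries 0 of the 3, Acnat2 included, passed the test.

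Saa1, serum amyloid A, had 1396, 192, 9.37, 17.5 and 18.5 CPM with beta-glucan and 28.9, 487, 3495, 1686 and 1252 CPM in CTRL. CTRL replicate 1 was nearly as low as CTRL+beta-Glucan replicates 3 to 5. The log2 fold change was -2.09 ± 1.19 with all libraries and -6.51 ± 1.19 (adjusted p = 0.198) without libraries 37, 39 and 40. Lbp, which presents lipopolysaccharide, was at -0.17 ± 0.12 with all libraries and -0.37 ± 0.09 without them.

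Immediate early genes, transcribed within minutes of a stimulus or of handling the tissue, had the highest list median, 0.42, with 14 of 21 positive and 7 higher at an unadjusted p under 0.05, beside 2.86% of all genes. Ier2 had 36.7, 33.5, 28, 23.5 and 16.8 CPM with beta-glucan and 21.4, 15.5, 21, 15.6 and 14.3 CPM in CTRL (0.65 ± 0.18). Junb had 37.0, 42.1, 23.1, 18.7 and 9.20 CPM and 7.39 to 17.7 CPM (1.04 ± 0.34), and Jun, its partner in AP-1, 17.5 to 53.9 against 15.3 to 28.7 CPM (0.78 ± 0.27). For Ier2 and Junb the highest values were again those of CTRL+beta-Glucan replicates 1 and 2. In the fit without libraries 37, 39 and 40, 11 of 21 were positive and the median was 0.22. At an unadjusted p under 0.05, 2 were higher and 1 was lower there, beside 2.98% and 3.52% of all genes.

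Heat shock proteins, the chaperones induced by unfolded protein, had 10 of 13 negative, a median of -0.25 and 5 lower and 0 higher at an unadjusted p under 0.05, beside 2.84% lower of all genes. After libraries 37, 39 and 40 were left out, the median was -0.16, with 1 lower and 2 higher at that p, beside 3.52% and 2.98% of all genes. Hsph1, the large heat shock protein of the HSP110 family, had 24.1, 27.2, 31.4, 36.6 and 27.9 CPM with beta-glucan and 34.6, 61.7, 48.1, 43.1 and 35.8 CPM in CTRL (-0.60 ± 0.15, adjusted p = 0.554). Hspa1b, the inducible HSP70, had 4.76 to 8.44 CPM against 6.58, 30.9, 26.7, 11.1 and 7.21 CPM (-1.18 ± 0.40), and its difference lay in CTRL replicates 2 and 3. In the list of integrated and endoplasmic reticulum stress 11 of 20 were positive and the median was 0.06. At an unadjusted p under 0.05, 1 was higher and 4 were lower, beside 2.86% and 2.84% of all genes. Without libraries 37, 39 and 40, 4 of 20 were positive and the median was -0.41. In that fit 1 was higher and 8 were lower at that p, beside 2.98% and 3.52% of all genes. Gdf15, a stress cytokine, had 3.57 to 9.97 CPM against 1.60 to 4.37 CPM (0.98 ± 0.28), and Dnajb9, a chaperone of the endoplasmic reticulum, 10.8 to 18 against 16.6 to 22.4 CPM (-0.39 ± 0.13).

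**Figure D4:**
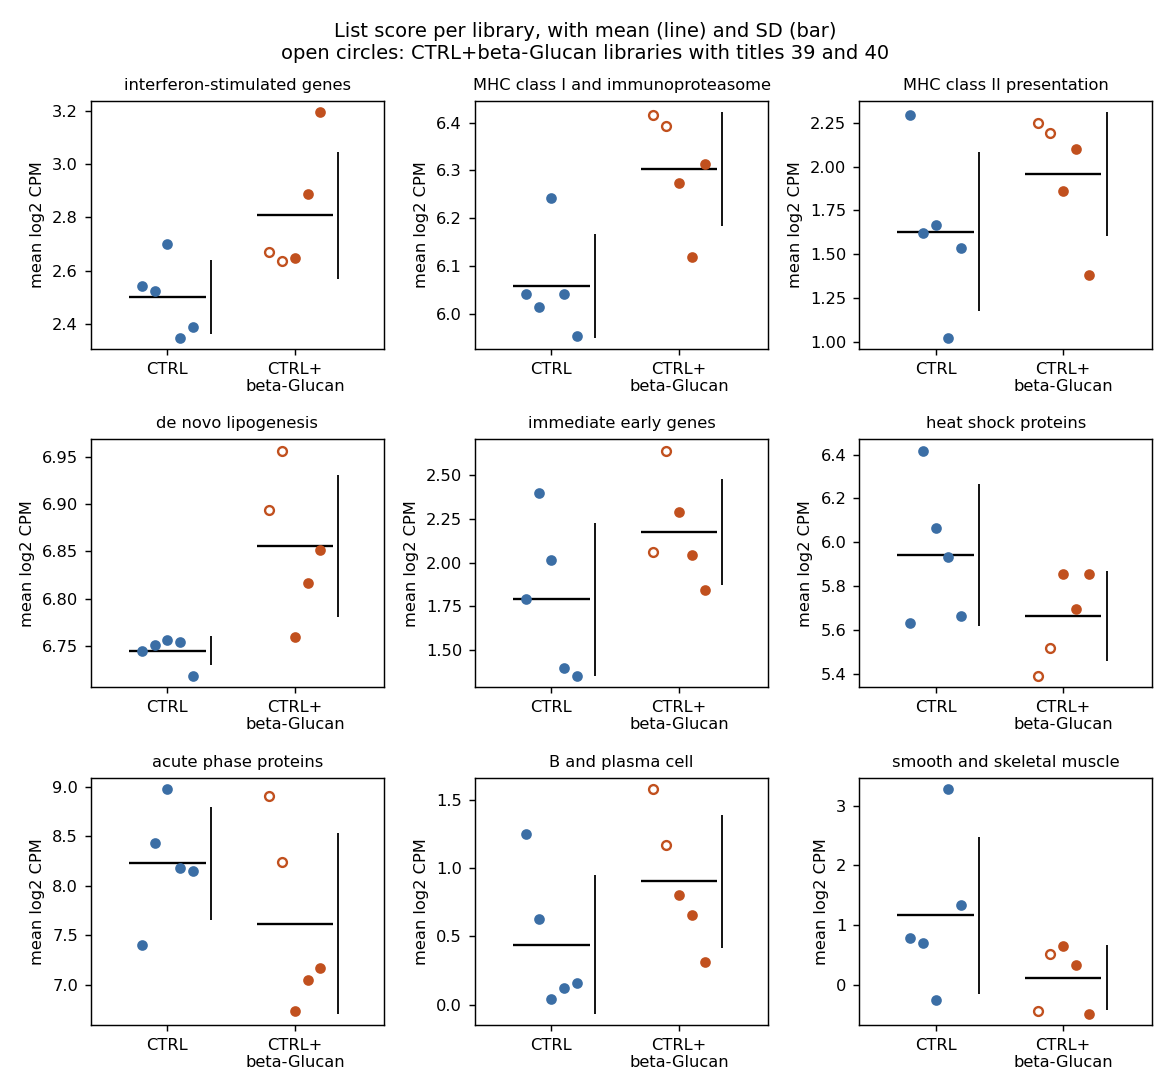
Score of 9 gene lists, the mean log2 CPM of the tested members, in each library (points), with the group mean (line) and SD (bar); axes do not start at 0 because the scores are logarithms, and open circles mark CTRL+beta-Glucan replicates 1 and 2. For acute phase proteins these 2 lie at 8.90 and 8.24 and the other 3 libraries with beta-glucan at 6.73 to 7.16, while the scores of interferon-stimulated genes run from 2.64 to 3.19 against 2.35 to 2.70 in CTRL.

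Among the cell type markers 0 passed the test. In whole liver fewer cells of a type and less RNA per cell cannot be told apart. Hepatocyte markers, Alb among them, summed to 88321 to 106699 TPM (transcript abundance per length, scaled to a common total) with beta-glucan and 74299 to 98033 TPM in CTRL. Markers of resident Kupffer cells summed to 242 to 468 against 305 to 347 TPM, and 10 of 15 were positive (median 0.14). Monocyte and macrophage markers summed to 67.1 to 229 against 65.9 to 222 TPM, with 13 of 20 positive (0.24). After those 3 libraries were left out, 4 of 15 Kupffer cell markers and 3 of 20 monocyte and macrophage markers were positive, with medians of -0.11 and -0.26. Endothelial markers had 17 of 20 positive with a median of 0.15, and stellate cell markers 13 of 17 with 0.21 (0.37 when the 3 libraries were left out). T and NK cell markers summed to 8.72 to 11.7 against 5.47 to 13.3 TPM, with 18 of 20 positive and a median of 0.36 (14 of 20 and 0.37 when these were left out).

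B and plasma cell markers had 10 of 11 positive and a median of 0.34, and these stood high in 2 libraries. Igkc, the kappa light chain, had 37.7 and 38.4 CPM in CTRL+beta-Glucan replicates 1 and 2, 8.35, 7.37 and 6.03 CPM in replicates 3 to 5, and 4.49 to 14.9 CPM in CTRL. Ighg2b, a heavy chain, had 8.95 and 14 CPM in the same 2 libraries and at most 0.974 CPM in the other 3. Without libraries 37, 39 and 40 the log2 fold changes of Igkc and Ighg2b were -0.23 and -0.61, against 1.20 and 2.23 with them.

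Markers of blood and muscle had negative median log2 fold changes, and their part in other values was not tested. All 6 tested erythrocyte genes were negative with a median of -1.08 (-1.48 in the fit of 3 against 5 libraries). Hbb-bs, a beta-globin, had 84.6, 250, 128, 37.7 and 99.5 CPM with beta-glucan and 233, 350, 140, 199 and 381 CPM in CTRL. Smooth and skeletal muscle genes had a median of -1.89, which was -0.63 without CTRL replicate 4. That library had 40.0 CPM of smooth muscle actin, Acta2, and 30.1 CPM of Tagln, against at most 4.79 and 4.38 CPM in the other CTRL libraries, and also 12.8 CPM of the bile duct keratin Krt19. Skeletal muscle Ckm, Myh1 and Myh4, adipose Lep and Ucp1 and pancreatic Prss1 and Try4 were listed at 0 in all 10 libraries.

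In the remaining lists of liver function the median was 0.14 for lipoprotein secretion (15 of 20 positive), -0.02 for drug-metabolizing cytochromes P450 and their regulators (15 of 34), 0.03 for NRF2 targets and glutathione transferases (19 of 28), -0.06 for the circadian clock (8 of 22), -0.02 for the cell cycle (13 of 26) and 0.00 for fibrosis and extracellular matrix (18 of 35). In the fit without libraries 37, 39 and 40, 6 of 28 NRF2 targets and 9 of 34 of the P450 list were positive, with medians of -0.12 and -0.16. Of the NRF2 list 0 were higher and 6 lower there at an unadjusted p under 0.05, beside 2.98% and 3.52% of all genes. Male-biased genes under growth hormone had a median of -0.08, with 21 of 30 negative, and the urea cycle and amino acid catabolism 0.04. Leaving out the same 3 libraries gave the male-biased list a median of -0.41 with 24 of 30 negative. It gave -0.06 for the urea cycle, 0.06 for lipoprotein secretion, -0.18 for the cell cycle and 0.11 for the matrix.

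The same addition on the other diet gave more calls: WSD+beta-Glucan against WSD had 53 (0.39%). Whether the effects differ was tested as the difference between them, and 1 gene passed (0.00736%), with 1865 (13.7%) at an unadjusted p under 0.05. This gene was Unc93b1, at 0.26 ± 0.08 on the control diet and -0.50 (adjusted p = 0.0214) on the other, a difference of -0.76 with an edgeR adjusted p = 0.0366. Leaving out 1 library ended this call in 15 of 19 cases. For Epha2 the log2 fold change on the other diet was -0.18 (adjusted p = 0.564) and the difference -1.06 (adjusted p = 0.115). The difference of Epha2 passed without libraries 37, 39 and 40, where Epha2 and Cxcl10 were called, and that of Unc93b1 did not.

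Of the 20 genes named by p on the control diet, 12 had the opposite sign on the other diet and 0 passed the test there. For 16 of them the difference between the effects had an unadjusted p under 0.05, and for 0 an adjusted one. They were chosen for their effect on the control diet, which enters this difference. Lpl, lipoprotein lipase, had 9.15 to 12.8 against 7.62 to 14.6 CPM on the control diet (0.00 ± 0.17) and a log2 fold change of -1.23 (adjusted p = 0.00238) on the other (difference -1.23, adjusted p = 0.115). Mmp12, the macrophage elastase, chosen after its values were seen, was at -0.34 ± 0.34 and at -1.56 (adjusted p = 2.80e-04), a difference of -1.22 (adjusted p = 0.222). Interferon-stimulated genes were positive in 37 of 37 cases on the control diet and in 10 of 37 on the other, where their median was -0.22. For 18 of them the difference between the effects had an unadjusted p under 0.05, beside 13.7% of all genes. Their effect on the control diet enters this difference too, and the list was chosen with earlier results of these data known. Across all 13594 genes the effects on both diets, which share no library, had a Pearson r of -0.17, which was -0.06 over 13789 genes without libraries 37, 39 and 40 and 0.02 with a term for them. Over the 7139 genes of at least 10 CPM the sign turned: r was -0.18 with all libraries, 0.10 without these 3 and 0.14 with the term. Genes are not independent replicates, so this is a description.

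**Figure D5:**
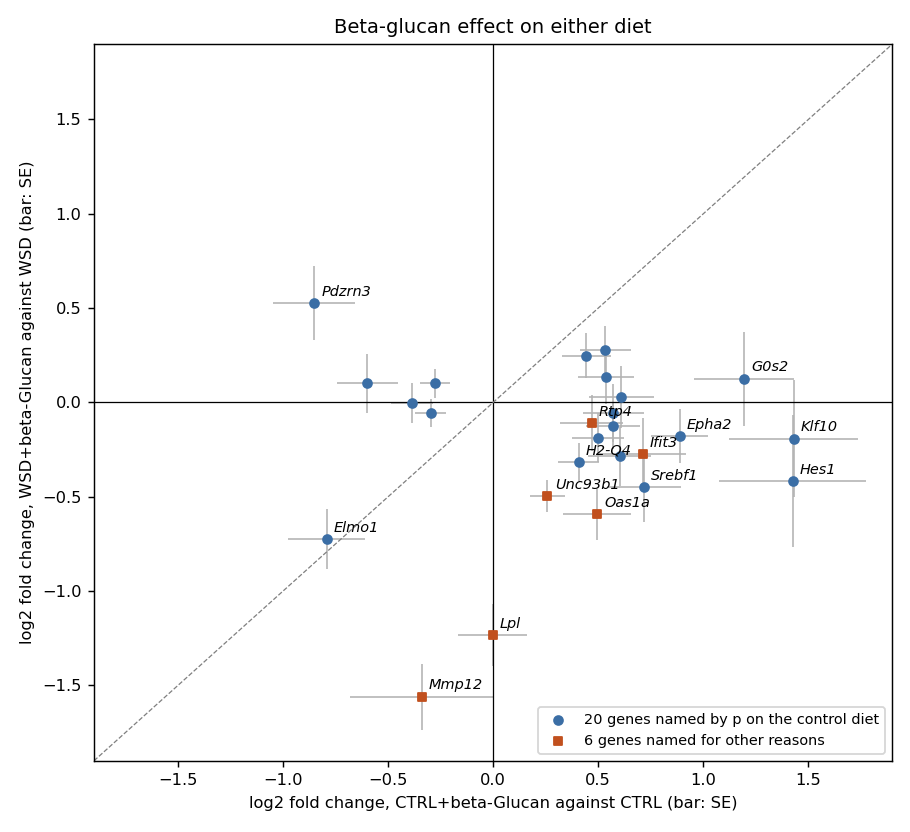
Log2 fold change with beta-glucan on the control diet (horizontal axis) and on WSD (vertical axis), each with its SE (bars), for the 20 genes named by p on the control diet (circles) and 6 other genes (squares); the dashed line marks equal effects. Epha2 lies at 0.89 and -0.18, Lpl at 0.00 and -1.23, and Elmo1 at -0.79 and -0.72 is near the line.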

How the data were processed

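Per the submitters' processing notes, Salmon 1.10.1, DESeq2 1.38.3 and the build GRCm39 were used by the authors, with no roles given; per the labels, libraries were stranded mRNA libraries of total liver RNA. The values deposited by the authors are, per transcript and library and per the file headers, estimated counts (expected counts that need not be whole), TPM, and as another unit the effective length in bases. Each lists 116546 transcripts, of which 115977 (99.51%) were matched by identifier to GENCODE M21 (GRCm38), used for names only; the other 569 held at most 0.1095% of a library's reads and were left out. Estimated counts were summed to 35498 genes and rounded. Deposited TPM values served only for marker sums and as weights of the effective lengths in 1 alternative.

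In R 4.3.3, edgeR 4.0.16 (filterByExpr on 4 groups, TMM, robust quasi-likelihood F test) was fitted to all 19 libraries, which share the estimate of the spread; 13594 genes were tested, with Benjamini-Hochberg adjustment at 0.05. SE is the absolute log2 fold change over the square root of F. Log2 CPM used a prior count of 2. DESeq2 1.42.0, limma-voom 3.58.1, RLE scaling, no filter, effective length offsets, 10 libraries alone, protein-coding genes alone and left-out libraries were alternatives. The fits were tested on simulated data. No molecular identifiers are named, so depth speaks of counting error only.

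Named are protein-coding genes past the threshold (mean of at least 1 CPM, assigned symbol), filled up to 20 by smallest p, a panel of 28 genes, and from 46 lists with at least 3 tested members the 3 with the smallest p, of which a selection is quoted; a 47th list, of exocrine pancreas, had 2 tested members. These members, lists and tests were chosen with earlier results of these data known. Replicates are numbered in order of deposition, and no library pair held identical counts. Results of a few panel and list genes are not reported here.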

Additional observations from a re-analysis of the deposited data

Results flagged for a closer look

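Each group of 5 libraries was searched for 1 value far from the other 4, by Dixon's gap over range with a critical value of 0.71. Of 194 groups of values tested 10 were found, about the 1 in 20 that chance gives. With beta-glucan, Aqp8 stood low in replicate 3 (27.4 CPM, the others 44.6 to 50.5 CPM), Scd1 high in replicate 4 (4318 CPM, the others 2918 to 3186 CPM) and Saa1 high in replicate 1 (1396 CPM, the others 9.37 to 192 CPM). In CTRL, Psmb9 was high in replicate 3 (10.5 CPM, the others 6.80 to 7.80 CPM), Fgf21 in replicate 3 (33.8 CPM, the others 9.81 to 11.5 CPM), Nr0b2 in replicate 1 (74.5 CPM, the others 25.8 to 38.4 CPM) and Ccl2 in replicate 2 (0.487 CPM, the others 0.112 to 0.206 CPM). G6pc was low in CTRL replicate 2 (487 CPM, the others 720 to 797 CPM). The share of counts in the 50 most abundant genes was 43.3% in CTRL replicate 5 and 40.2% to 40.9% in the other CTRL libraries. The cholangiocyte score was 2.81 in CTRL replicate 4, the library with high Acta2, and 1.45 to 1.82 in the others.

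Unc93b1 was the 1 gene whose effect of beta-glucan differed between the diets by the test of the difference itself, -0.76 on the log2 scale (edgeR adjusted p = 0.0366). It passed in 12 of 28 alternatives. Of the 19 fits without 1 library it passed in 4, those without WSD+beta-Glucan replicate 3, CTRL+beta-Glucan replicate 5, WSD replicate 4 or CTRL replicate 3, and without libraries 37, 39 and 40 it did not pass.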

How the results depend on the processing

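Of 2169 values of 75 genes under 29 other settings, 2085 kept their direction and their side of the threshold. Only Epha2 among these genes passed the test in the main fit, so an unchanged side says little of the others. Of the remaining values 65, of 17 genes, were reversed, 6 gained a call and 13, all of Epha2, lost it. For the control diet, 5 genes were higher with DESeq2, 0 with the 10 libraries alone, 2 higher and 3 lower without libraries 37, 39 and 40, 2 higher with a term for these, and 0 to 2 higher and 0 lower with any 1 library left out (the fits without a WSD or WSD+beta-Glucan library were chosen after seeing the data). Without 1 library of the control diet there were 0 calls in 7 of 10 fits, and over the 10 fits 550 to 1336 genes had an unadjusted p under 0.05. For the difference between the diets, DESeq2 gave 14 higher and 119 lower, 2 were lower without libraries 37, 39 and 40 and 2 with the term, and with 1 library left out 0 to 10 were higher and 0 to 71 lower, the highest counts being those without CTRL+beta-Glucan replicate 5. The log2 fold change of Epha2 was 0.89 in the 10 libraries alone (adjusted p = 0.350), and 0.78 to 0.995 with 1 library left out. The cause of these shifts was not tested.

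Reversed values belong to genes that did not pass the test. Without libraries 37, 39 and 40, and then with the term, these were Cyp8b1 0.13 and 0.24, Sqle -0.33 and -0.091, Acaca 0.086 and 0.071, Cpt1a 0.069 and 0.039, G6pc 0.10 and 0.084, Cd36 0.21 and 0.031, Cidec 0.42 and 0.11, Hamp -0.34 and -0.29, Insig1 -0.18 and -0.011, and Ighg2b -0.61 and -0.079. Reversed without these libraries but not with the term were Fasn -0.077, Scd1 0.054 and Igkc -0.23. By limma-voom Scd1 was at 7.76e-04. Lpl was at 0.0064 with RLE, 0.012 with no filter, 0.0081 by DESeq2, 7.88e-04 by limma-voom, 0.0050 with the 10 libraries alone, 0.0046 with the effective length offset and 0.011 with protein-coding genes alone. With 1 library left out the ranges were Acaca -0.081 to 0.035, Ccl2 -0.26 to 0.60, Cd14 -0.19 to 0.14, Cd36 -0.43 to 0.0057, Cidec -0.87 to 0.12, Cyp8b1 -0.10 to 0.081, Hamp -0.13 to 0.41, Lpl -0.11 to 0.12, Pck1 -0.15 to 0.063 and Scd1 -0.15 to 0.11.

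No paired analysis was possible because the labels give the groups no shared replicate numbers. Depth limits what can be said of genes under 1 CPM, of which 27.6% were bounded within 2-fold.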
